A study of Rattus norvegicus with 10 samples.

Results

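A set of 10 genes of the cAMP signalling route to transcription was examined in the rat spinal cord, namely 7 adenylyl cyclases (Adcy1, Adcy2, Adcy3, Adcy5, Adcy6, Adcy8 and Adcy9) and 3 members of the CREB family (Creb1, Crem and Atf1). The members were chosen by gene name, and their probes were the mRNA probes of the array whose RefSeq accession belonged to one of the 10 genes, whatever the measured values. Of the 10 genes, 9 were matched to a probe, with 11 of the 15323 mRNA probes: Creb1 and Crem had 2 probes each, every other matched gene had 1, and each probe was a single spot. Adcy9 was not matched to a probe and was not analysed here. The probe of Adcy1 did not pass the intensity filter, so that 10 RNAs of 8 genes were tested, among 20280 RNAs in all.

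Total RNA came from the lumbar enlargement of male Sprague Dawley rats that weighed 240 to 260 g. The 5 rats of the morphine tolerance (MT) group, numbered 1 to 5, received 10 μg of morphine in 10 μl into the intrathecal space, 2 injections a day over 7 days. The 5 rats of the normal saline (NS) group, numbered 6 to 10, received 10 μl of saline by the same route and schedule. By the methods of the study, the cord was taken the next day, 1 hour after a further morning injection of morphine or saline, so that repeated dosing and the last dose cannot be told apart. Each rat had 1 one-colour lncRNA and mRNA array, and the labels name no genetic modification. The comparison asks which RNAs differ between the cord of tolerant rats and that of saline rats.

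Adenylyl cyclases are membrane enzymes that make the second messenger cAMP from ATP. The μ-opioid receptor, on which morphine acts, couples to inhibitory G proteins that lower cyclase activity, and a compensatory increase of cyclase activity during prolonged opioid exposure is a classical description of cellular tolerance and dependence. cAMP activates protein kinase A, which phosphorylates CREB, CREM and ATF1, a trio of related leucine zipper factors that bind the cAMP response element (CRE) in promoters.

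No member passed a Benjamini-Hochberg adjusted p of 0.05 in the limma fit, a threshold that 0.197% of all RNAs passed (0.074% higher and 0.123% lower). One Crem RNA was higher in every MT rat than in any NS rat, by 0.40 on the log2 scale, and Atf1 was lower in every MT rat than in any NS rat, by 0.32. One Creb1 RNA and Adcy6 were higher in the MT group on average with overlapping groups. Adcy2, Adcy3, Adcy5, Adcy8, the other Crem RNA and the other Creb1 RNA had differences within the spread between rats. At an unadjusted P below 0.05, 4 of the 10 member RNAs were counted, 3 higher (Adcy6, Creb1 and Crem) and 1 lower (Atf1), beside 16.4% of all RNAs (6.83% higher and 9.54% lower). None met the criteria of the study, taken as a change of over 1.5-fold on the linear scale together with an unadjusted P under 0.05, which 2.73% of all RNAs met (1.73% higher and 0.996% lower). Complete separation of the rats by group was seen for 2 of the 10 member RNAs, 1 higher and 1 lower, beside 5.63% of all RNAs (2.33% higher and 3.29% lower).

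Slides were inferred from when each array was scanned, and were not read from a slide label. In this text, a slide means a set of arrays scanned at the same time. By this rule, slide 1 carried MT rats 1, 3, 4 and 5 alone. Slide 2 carried MT rat 2 with NS rats 6, 7 and 10, and slide 3 carried NS rats 8 and 9 alone. The share of spots well above background was 81.1% to 83.9% on the MT arrays and 77.4% to 79.6% on the NS arrays of slide 2, but 63.8% and 58.6% on the arrays of NS rats 8 and 9. Group and slide were therefore largely tied, and slide 2 alone held both groups. Values below are quantile-normalized log2 intensities, which can be compared between rats for one probe but not between probes. In whole cord, fewer cells of a type and less RNA per cell cannot be told apart.

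**Figure D1:**
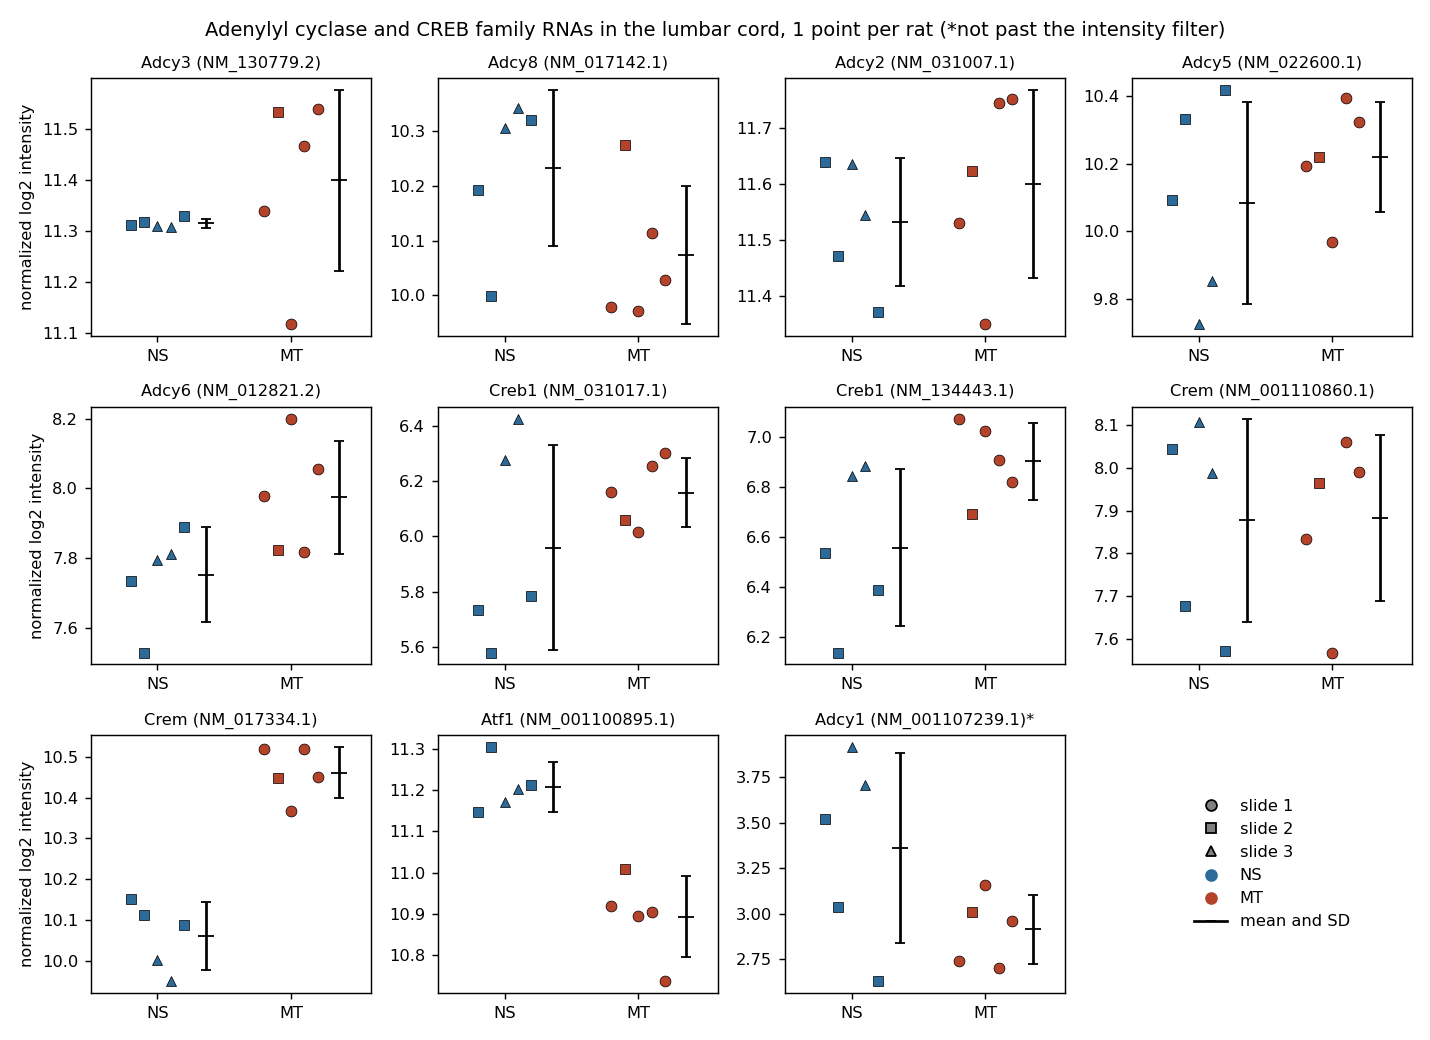
Normalized log2 intensity (vertical axes, one scale per panel) of the 11 member probes in the 5 NS rats and the 5 MT rats, with 1 point per rat, shapes for the slide, and the mean and SD beside each group. The groups do not overlap for Crem NM_017334.1, where MT is higher, and for Atf1, where MT is lower, and NS rats 8 and 9 (triangles) lie above the other NS rats for both Creb1 probes.

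Crem encodes CREB-like activators and repressors from a single gene, among them a short repressor called ICER that is made from an internal promoter. The gene lies on the plus strand of chromosome 17, from 58932011 to 59001160 in the GRCr8 build. The RefSeq promoter table of that build gave 3 start windows for it, each with 250 bases before and 50 after a start. They are shown because the CREB family binds the letters that were searched in them, the full CRE TGACGTCA, which reads the same on both strands, and its core TGACG or, on the other strand, CGTCA. Capitals mark these letters, 5′ to 3′, and each full CRE holds overlapping core sites of both strands.
Crem start window 1, chr17:58933816-58934115: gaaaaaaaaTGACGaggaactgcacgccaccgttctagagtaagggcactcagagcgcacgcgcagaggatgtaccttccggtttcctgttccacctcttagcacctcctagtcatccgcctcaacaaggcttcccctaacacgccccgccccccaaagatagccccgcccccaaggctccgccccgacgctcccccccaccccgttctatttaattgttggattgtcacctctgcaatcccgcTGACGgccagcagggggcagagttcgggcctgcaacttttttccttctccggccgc
Crem start window 2, chr17:58984547-58984846: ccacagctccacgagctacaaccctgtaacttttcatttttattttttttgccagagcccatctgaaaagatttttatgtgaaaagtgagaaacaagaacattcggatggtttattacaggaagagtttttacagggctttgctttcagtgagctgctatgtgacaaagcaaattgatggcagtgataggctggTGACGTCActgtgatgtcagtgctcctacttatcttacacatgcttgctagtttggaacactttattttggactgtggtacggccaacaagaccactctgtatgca
Crem start window 3, chr17:58985240-58985539: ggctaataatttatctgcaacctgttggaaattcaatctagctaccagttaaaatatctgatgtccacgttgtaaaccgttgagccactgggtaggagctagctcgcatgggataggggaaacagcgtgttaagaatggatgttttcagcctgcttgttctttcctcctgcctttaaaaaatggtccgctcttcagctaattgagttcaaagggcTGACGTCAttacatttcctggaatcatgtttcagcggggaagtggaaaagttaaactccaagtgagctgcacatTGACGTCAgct

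The full CRE stood 56 bases upstream of the start in window 2, and 35 bases upstream and 39 bases downstream of it in window 3. Window 1, the most upstream, held core sites 241 and 6 bases upstream of its start. Windows were given for 6 of the 10 genes (Adcy1, Adcy2, Adcy5, Adcy9, Creb1 and Crem), 9 windows in all, and the 2 that held a full CRE were both of Crem. Of the 33469 windows of the table, 612 (1.83%) held a full CRE and 14 (0.0418%) held 2 or more. A core site on either strand was found in 5 of the 9 member windows and in 21.2% of all windows. These matches describe the letters of the windows, and the array files do not say which start or isoform each Crem probe reads.

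The Crem probe of NM_017334.1 read 10.52, 10.45, 10.37, 10.52 and 10.45 in MT rats 1 to 5. In NS rats 6 to 10 it read 10.15, 10.11, 10.00, 9.95 and 10.09. The lowest MT rat thus lay above the highest NS rat. MT rat 2 exceeded the 3 NS rats of slide 2 by 0.33 on average, an order that the full separation already fixes. The group means were 10.46 ± 0.06 and 10.06 ± 0.08 (SD, n = 5 each), a 1.32-fold difference. The log2 difference was 0.40 (SE 0.06) with a limma adjusted p of 0.0509, which ranked 41st behind the 40 RNAs past the threshold. The exact two-sided permutation test gave p = 0.00794, the smallest that 5 rats against 5 allow. Full separation always gives this p, 5.63% of all RNAs were separated, and the test takes no account of the slides. Under 6 of 23 alternative settings the RNA passed the adjusted threshold (p from 0.0203 to 0.0439), and under the others it did not, with adjusted p up to 0.906 when the slide was a block.

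The Crem probe of NM_001110860.1 read 7.83, 7.96, 7.57, 8.06 and 7.99 in the MT rats. The NS rats read 8.04, 7.68, 8.11, 7.99 and 7.57, which spans the same range. The groups differed by 0.01 (SE 0.13, 95% interval −0.29 to 0.30, adjusted p = 0.986). The gap between them on each array was larger in the MT group by 0.40, with an exact permutation p of 0.0556 (0.111 adjusted over the 2 genes with a pair of probes). That test does not show that the probes responded differently. Over the 10 arrays the Crem probes had a Pearson r of 0.03, against 0.81 for the Creb1 probes, which is a description only, since the arrays share group and slide.

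Creb1 encodes CREB itself, the factor through which cAMP and calcium signals reach many neuronal genes. It lies on the plus strand of chromosome 9, from 73397333 to 73466339 in GRCr8. Its first RefSeq start window held no full CRE but 3 core sites, 80 and 59 bases upstream and 8 bases downstream of the start, and is shown beside those of Crem for that contrast, with the core sites in capitals.
Creb1 start window 1, chr9:73397259-73397558: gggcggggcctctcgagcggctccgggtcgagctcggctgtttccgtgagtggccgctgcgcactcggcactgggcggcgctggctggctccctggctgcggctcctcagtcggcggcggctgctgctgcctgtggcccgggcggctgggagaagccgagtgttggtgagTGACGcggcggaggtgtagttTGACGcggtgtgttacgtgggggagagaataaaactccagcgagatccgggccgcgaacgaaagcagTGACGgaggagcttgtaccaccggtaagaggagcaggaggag

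The Creb1 probe of NM_134443.1 read 7.08, 6.69, 7.02, 6.91 and 6.82 in MT rats 1 to 5. NS rats 6, 7 and 10 read 6.54, 6.14 and 6.39, and NS rats 8 and 9 read 6.84 and 6.88. Every MT rat was above the 3 NS rats of slide 2, and the pair of NS rats on slide 3 fell inside the MT range. The group means were 6.90 ± 0.15 and 6.56 ± 0.32 (SD, n = 5), a 1.27-fold difference. Its log2 difference of 0.35 (SE 0.15) had a limma adjusted p of 0.290 and an exact permutation p of 0.0714. Without slide 3 the difference was 0.55 with an adjusted p of 0.166, and under normexp background correction it was 0.22. Within the NS group, the slide 3 rats exceeded the slide 2 rats by 0.51, and the part of the slide in the values was not tested.

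The Creb1 probe of NM_031017.1 read 6.16, 6.06, 6.02, 6.26 and 6.30 in the MT rats. It read 5.73, 5.58, 6.28, 6.43 and 5.78 in NS rats 6 to 10, so that the NS group split by slide once more, by 0.65. MT rat 2 and every other MT rat were above the NS rats of slide 2. NS rat 9 was above all MT rats. The log2 difference was 0.20 (SE 0.16, adjusted p = 0.566) over the 10 arrays, and 0.46 (SE 0.09, adjusted p = 0.160) without slide 3. It was 0.10 under normexp background correction and 0.10 without NS rat 7.

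Atf1 encodes a CREB relative that binds the same element alone or paired with CREB. It lies on chromosome 7, from 133240774 to 133283488. Its probe read 10.92, 11.01, 10.89, 10.90 and 10.74 in the MT rats. It read 11.15, 11.30, 11.17, 11.20 and 11.21 in the NS rats. The highest MT rat was below the lowest NS rat, so that Atf1 and the separated Crem RNA differed in opposite directions. The means were 10.89 ± 0.10 and 11.21 ± 0.06 (SD, n = 5), which is 1.24-fold higher in NS. The log2 difference was −0.32 (SE 0.07), with a limma adjusted p of 0.0950. The exact permutation p was 0.00794, which full separation always gives. MT rat 2 was below the NS rats of slide 2 by 0.21 on average, an order that the full separation already fixes. With the slide as a fixed block, which takes its difference from those 4 arrays, the unadjusted P of Atf1 was 0.0830.

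**Figure D2:**
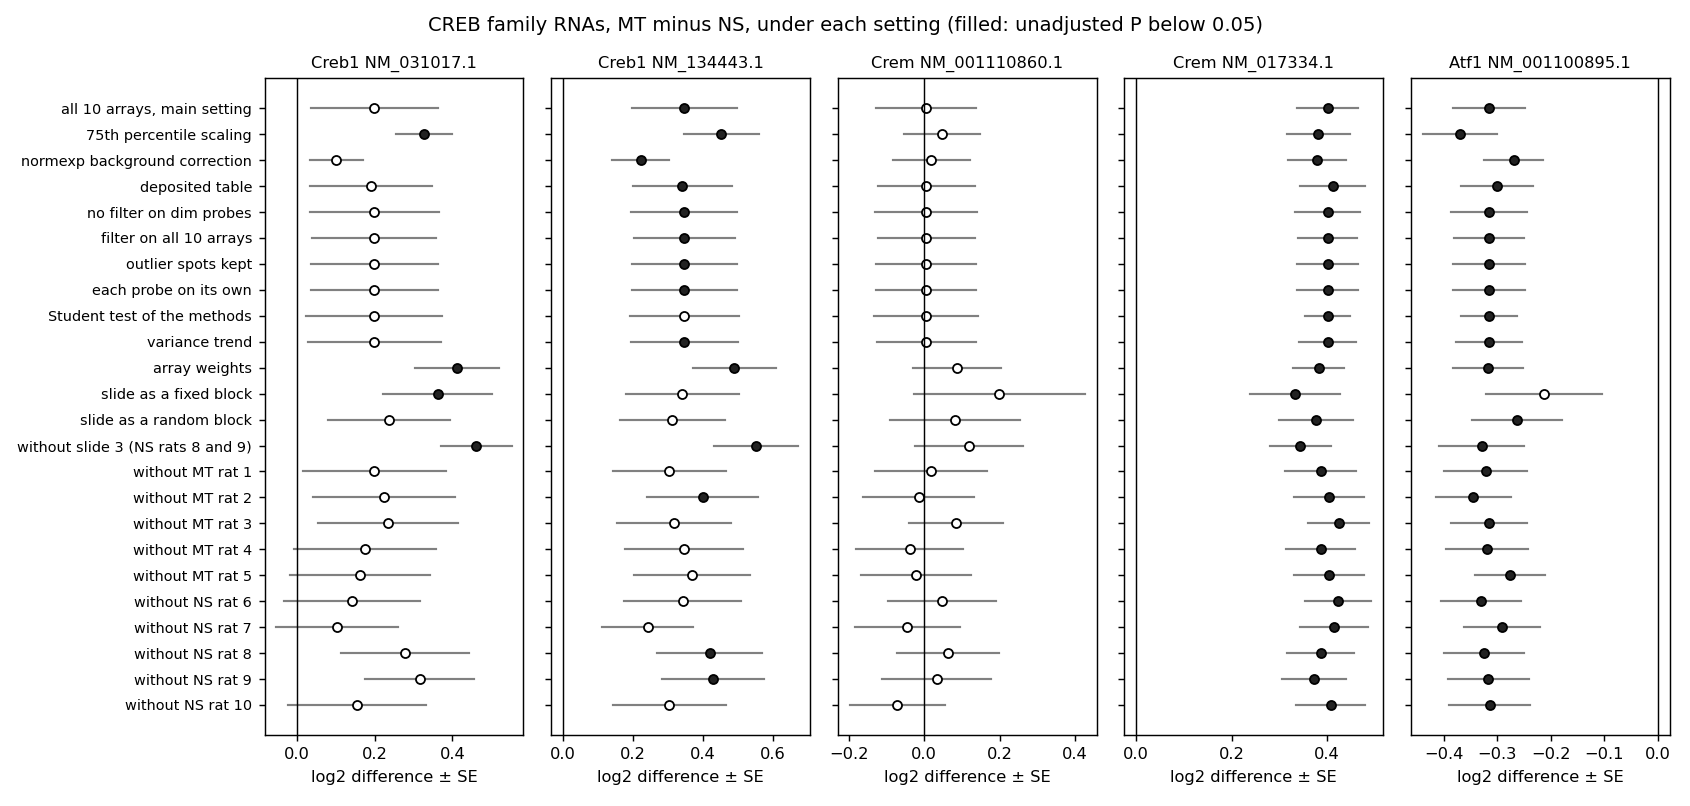
Log2 difference between MT and NS (horizontal axes, one scale per panel, bars ± 1 SE) of the 5 CREB family RNAs in the fit of all 10 arrays and under 23 alternatives, with filled points where the unadjusted P was below 0.05. Crem NM_017334.1 stays between 0.33 and 0.42 and Atf1 between −0.37 and −0.21, while the Creb1 values shift to the right where NS rats 8 and 9 are left out.

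Among the cyclases, Adcy1, Adcy3 and Adcy8 are classed as stimulated by calcium and calmodulin. The Adcy3 probe read 11.34, 11.53, 11.12, 11.47 and 11.54 in the MT rats. The NS rats read 11.31, 11.32, 11.31, 11.31 and 11.33. The NS rats were nearly identical (SD 0.0087) and the MT rats were scattered on both sides of them (SD 0.18). The difference was 0.08 (SE 0.09, 95% interval −0.11 to 0.28, adjusted p = 0.650). Without MT rat 3, the lowest, it was 0.15 (SE 0.06) with an unadjusted limma P of 0.0326 and an adjusted p of 0.293. No other of the 23 alternatives gave an unadjusted P below 0.05. Within slide 2 the difference was 0.21.

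The Adcy8 probe read 9.98, 10.28, 9.97, 10.11 and 10.03 in the MT rats. The NS rats read 10.19, 10.00, 10.31, 10.34 and 10.32. MT rats 1, 3, 4 and 5 were below NS rats 6, 8, 9 and 10, with MT rat 2 and NS rat 7 as the exceptions. MT minus NS was −0.16 on the log2 scale (SE 0.09, 95% interval −0.36 to 0.04, adjusted p = 0.411). Within slide 2 it had the opposite sign, 0.10. The unadjusted limma P was 0.0424 without MT rat 2 and 0.0279 without NS rat 7, with differences of −0.21 and −0.22. Of the 23 alternatives, these were the only 2 with an unadjusted P below 0.05.

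Adcy1 was dim. Its probe was well above background in 2 MT rats (2 and 3) and 1 NS rat (6), so it was left out of the tests. It read 2.74, 3.01, 3.16, 2.70 and 2.96 in the MT rats. It read 3.52, 3.04, 3.92, 3.71 and 2.63 in the NS rats, a wider spread that contains the MT values. In a fit without the filter the log2 difference was −0.45 (SE 0.23, adjusted p = 0.384), and no fold is given because most of these values are not well above background.

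Adcy2, a cyclase that G protein βγ subunits stimulate, read 11.53, 11.62, 11.35, 11.74 and 11.75 in the MT rats. The NS rats read 11.64, 11.47, 11.63, 11.55 and 11.37. The groups overlapped over most of their range, and the difference was 0.07 (SE 0.10, 95% interval −0.14 to 0.28, adjusted p = 0.747). Over the 10 arrays, Adcy2 and the Crem probe of NM_001110860.1 had the highest Pearson r of the 45 pairs of member RNAs, 0.90, which is a description over arrays that share slides. In both, MT rats 4 and 5 were the 2 highest of their group and MT rat 3 was the lowest.

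Adcy5 and Adcy6 are the closely related cyclases that calcium inhibits. The Adcy5 probe read 10.19, 10.22, 9.97, 10.39 and 10.32 in the MT rats. The NS rats read 10.09, 10.33, 9.73, 9.85 and 10.42. NS rats 8 and 9 were the 2 lowest of all, 0.49 below the NS rats of slide 2, the reverse of their place for Creb1. The difference was 0.13 (SE 0.14, 95% interval −0.19 to 0.46, adjusted p = 0.664), within slide 2 it was −0.06, and without slide 3 it was −0.06 as well.

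The Adcy6 probe read 7.98, 7.82, 8.20, 7.82 and 8.05 in the MT rats. The NS rats read 7.73, 7.53, 7.80, 7.81 and 7.89. Only NS rat 10 reached into the MT range, above MT rats 2 and 4. The means were 7.97 ± 0.16 and 7.75 ± 0.14 (SD, n = 5), a 1.17-fold difference. MT exceeded NS by 0.22 on the log2 scale (SE 0.10, 95% interval 0.0028 to 0.44), the largest of the 5 member cyclases tested, with a limma adjusted p of 0.302 and an exact permutation p of 0.0397. Within slide 2 it was 0.10. The unadjusted P was below 0.05 under 11 of the 23 alternatives.

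**Figure D3:**
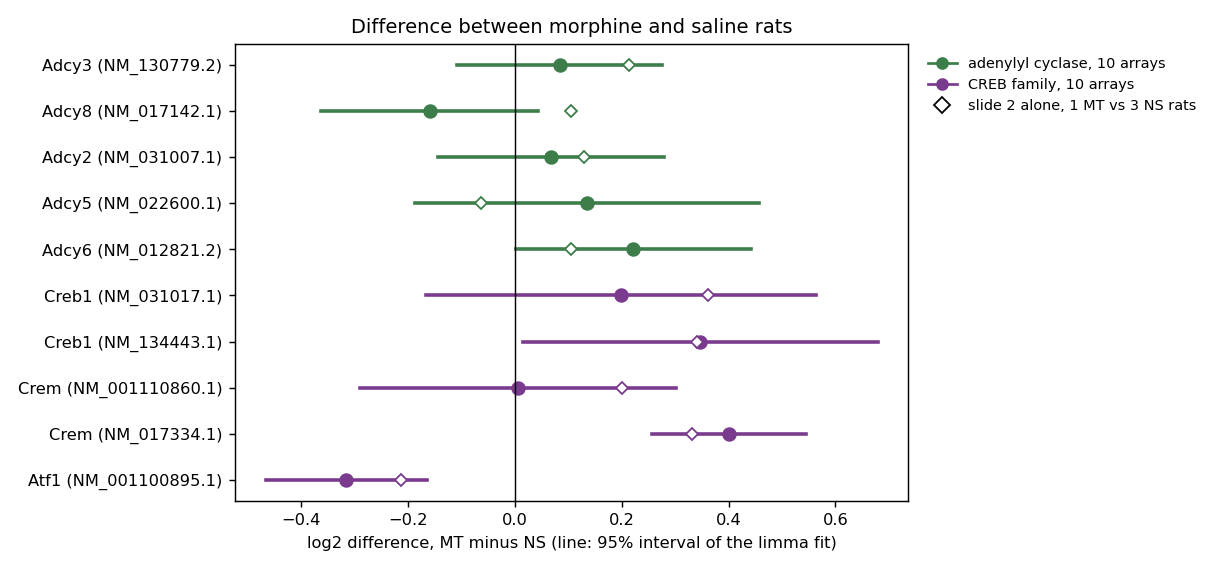
Log2 difference between MT and NS of the 10 member RNAs tested (filled circles, with the 95% interval of the limma fit as lines) and the difference within slide 2 alone, 1 MT rat against the mean of 3 NS rats (open diamonds, no error). The intervals of Crem NM_017334.1, Creb1 NM_134443.1 and Adcy6 lie above 0 and that of Atf1 below it, with the slide 2 value on the same side, and for Adcy8 and Adcy5 the slide 2 value lies on the other side of 0.

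Over the 10 member RNAs, 8 differences were positive and 2 negative, with a median of 0.11, beside a median of −0.0014 over all RNAs tested. The median size, whatever the sign, was 0.18 for the members and 0.15 for all RNAs. These describe the list and are no test of it.

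The mRNAs whose pattern was most like that of Adcy6 over the 10 arrays, by Pearson r among 12456 mRNAs of other named genes, were Mavs (0.977), Msl3l2 (0.965) and Snx8 (0.962). Among the mRNAs most like Crem NM_017334.1, of 12455, were Map7d1 (0.957) and Socs3 (0.948). Socs3, a feedback inhibitor of cytokine receptors, was 0.74 higher in MT on the log2 scale with a limma adjusted p of 0.0467. Map7d1 was higher by 0.48 (adjusted p = 0.0892). These r values are the highest of many, over arrays that share group and slide. An mRNA picked for likeness to the separated Crem RNA differs by group through that choice, so these differences are no separate support.

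The other genes of the pathway were taken from lists by role, with 88 genes listed, 79 on the array and 77 tested through 89 RNAs. None passed the adjusted threshold. At an unadjusted P below 0.05, 8 were higher and 6 lower, beside the 16.4% of all RNAs, and 2 higher and 1 lower met the criteria of the study. The median difference over the 89 RNAs was 0.02.

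Upstream of the members, none of the 8 RNAs of G protein α subunits had an unadjusted P below 0.05. Gnao1, the α subunit of Go, had the smallest P and a difference of 0.28 (adjusted p = 0.429). Nor did any of the 3 further cyclases, of which soluble Adcy10 differed by −0.58 (adjusted p = 0.459). The exchange factor Rapgef3, a cAMP sensor apart from protein kinase A, differed by 0.14 (adjusted p = 0.698).

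Of the 9 RNAs of protein kinase A subunits and inhibitors, none had an unadjusted P below 0.05, and the inhibitor Pkig came nearest with −0.15 (adjusted p = 0.333). Of the 8 RNAs of anchoring proteins, which hold the kinase near its substrates, 1 was higher and 1 lower at that P. The postsynaptic anchor Akap5 had the smaller P, with −0.44 (SE 0.18, adjusted p = 0.272). Among 18 RNAs of 13 phosphodiesterase genes, which break cAMP down, 2 were higher and 3 lower at that P. The share over all RNAs at that P was 16.4%. Pde3b was lower in every MT rat than in any NS rat, at 8.26 ± 0.015 against 8.65 ± 0.19 (SD, n = 5), a difference of −0.40 (SE 0.09, adjusted p = 0.108). Such separation with MT lower was seen for 3.29% of all RNAs.

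Downstream, the coactivator Crebbp, a histone acetyltransferase that binds phosphorylated CREB, was 0.21 higher (SE 0.07, adjusted p = 0.209) with no overlap between the groups. Of the 3 coactivator RNAs tested, no other was separated or had an unadjusted P below 0.05, and 1 was lower in MT on average. Separation with MT higher was seen for 2.33% of all RNAs. Of 13 RNAs of other CREB kinases and phosphatases, Ppp1cc, a catalytic subunit of protein phosphatase 1, had the smallest P with −0.22 (adjusted p = 0.245). Of 26 RNAs of 23 genes known as CREB targets, 4 were higher and 1 lower at an unadjusted P below 0.05. The share of all RNAs at that P was 16.4%. Fos, an immediate early transcription factor, was 0.75 higher (SE 0.26, adjusted p = 0.211). Junb, its partner in AP-1, was 0.59 higher (SE 0.23, adjusted p = 0.262). The clock gene Per1 differed by −0.71 (SE 0.22, adjusted p = 0.183). In all 3 the groups overlapped, and the 3 met the criteria of the study without passing the adjusted threshold. Those criteria were met by 2.73% of all RNAs.

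**Figure D4:**
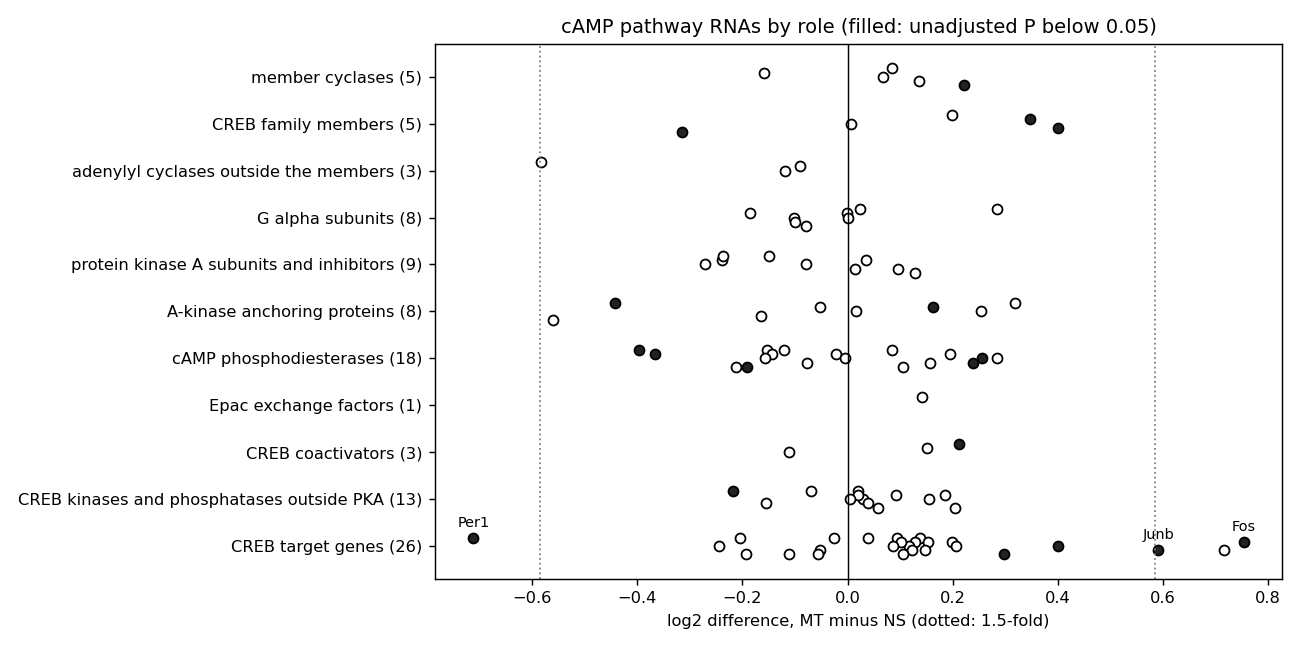
Log2 difference between MT and NS (horizontal axis) of each member RNA and each RNA of the pathway lists, by role, with the number of RNAs in brackets, filled points for an unadjusted P below 0.05 and dotted lines at 1.5-fold. The named points, Fos and Junb on the right and Per1 on the left, met the criteria of the study, and no member lies beyond the dotted lines.

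Markers of cell types were read from the same arrays. Probes were matched for 7 of 8 neuron, 5 of 6 astrocyte, 6 of 6 oligodendrocyte and 4 of 6 motor neuron marker genes. All of the matched genes of these lists were tested, with median differences of −0.01, −0.02, 0.08 and 0.29. All 6 microglia markers were lower in MT (median −0.34), 4 with an unadjusted P below 0.05 and none past the adjusted threshold, and their mean level lay between 11.76 and 12.38 for MT and between 12.08 and 12.65 for NS. All 3 neutrophil markers tested (S100a8, Camp and Np4) were higher in every MT rat than in any NS rat (median 1.31), none past the adjusted threshold, with mean levels of 6.53 to 6.92 and 5.41 to 5.88. All 4 meningeal fibroblast markers tested (Col1a2, Col3a1, Dcn and Lum) were higher in MT on average (median 0.43), none with an unadjusted P below 0.05, with mean levels of 10.10 to 10.22 in MT and 8.62 to 10.65 in NS. The microglia markers Csf1r and P2ry12 were lower in every MT rat than in any NS rat, as were Atf1 and Pde3b. Crem NM_017334.1 and Crebbp separated the groups in the other direction, that of the neutrophil markers. Since the marker sets lie in opposite directions, any separated RNA goes with either of them, so this match says nothing about the cells. The part of these cells in the member values was not tested.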

How the data were processed

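Each of the 10 rats gave 1 one-colour array, and all 10 were used. The authors purified mRNA, labelled it by random priming, hybridized it to Agilent-format arrays, and extracted the scans with Agilent Feature Extraction 11.0.1.1, named in the submitters' processing notes. Per array, the authors deposited each spot's linear intensity after background subtraction and its outlier and detection flags. A deposited table of quantile-normalized log2 values served as an alternative. It matched 24484 of 24684 probes and correlated with the values used here at a Pearson r of 0.996 to 1.00 per array.

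Intensities were floored at 1 (the lowest was 1.71), log2 transformed and brought to equal quantiles (R 4.3.3 with limma 3.58.1 and the package data.table, version 1.17.8). After outlier spots had been removed, spots of a probe and probes of an RNA were averaged. The intensity filter asked that over 50% of the spots of a probe be well above background on 5 or more arrays, which left 20286 RNAs, 20280 of them with at least 2 values per group. Gene symbols came from RefSeq accessions of GRCr8 (14274 of 15323 mRNA probes). The build of the array design is not given in the sources used here, and positions are those of genes. Start windows came from the RefSeq promoter table of GRCr8.

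MT and NS were compared by limma (lmFit and eBayes) over all RNAs with Benjamini-Hochberg adjustment, and single values by exact two-sided permutation. Samples of a group are separate rats. The text names every member, up to 3 genes of each pathway list past the study's criteria by smallest P, or otherwise the 1 with the smallest P, and the 3 mRNAs most like the cyclase and the CREB family member with the largest difference. Of these mRNAs, 1 is not reported here. The members and lists were chosen with earlier results of these data known. Steps were tested on simulated arrays. Alternatives were other scalings, background corrections, filters and tests, the inferred slide as a block, and leaving out each rat. Normexp used the median spot signal, the spot signal given in the files. Python 3.11.15 with pandas 2.3.3 and matplotlib 3.10.9 was used for the sequences and figures.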

Additional observations from a re-analysis of the deposited data

How the results depend on the processing

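No member RNA passed the adjusted threshold in the values reported, so the 23 alternatives had no such call to reverse. The sign of the difference held under all 23 except for Adcy8 (22), Adcy5 (21) and Crem NM_001110860.1 (18). The unadjusted P was below 0.05 under 13 of the 23 for Creb1 NM_134443.1 and under 11 for Adcy6. The number of member RNAs past an adjusted p of 0.05 was 0 in the values reported and 1 under normexp background correction, the deposited table, the filter on all 10 arrays, the methods' t-test, a variance trend and array weights, each time Crem NM_017334.1. The share of all RNAs past that threshold was 0.197% in the values reported and 0.281% to 0.902% under those alternatives. The number with an unadjusted P below 0.05 was 4, and 2 with the slide as a fixed block (Creb1 NM_031017.1 and Crem NM_017334.1) or as a random block (Crem NM_017334.1 and Atf1). The share of all RNAs at that P also fell, from 16.4% to 4.12% under the fixed block and 7.01% under the random block. Leaving out each rat in turn gave 2 to 5 member RNAs, with 2 without MT rat 1, MT rat 5 or NS rat 6 and 5 without MT rat 2. Over all RNAs, leaving out a rat gave 11.1% to 18.4%. The cause was not tested. Crem NM_017334.1 kept an unadjusted P below 0.05 under all 23, and Atf1 under 22, with the fixed slide block as the exception. Adcy8 was 0.10 under that block in place of −0.16. Scaling by the 75th percentile moved the median of all RNAs to 0.07. The fixed block rests on 1 MT and 3 NS arrays. No paired analysis was possible because the rats of the 2 groups share no number. The number of arrays and the dim spots of NS rats 8 and 9 limit the precision.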

Other observations

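Other CREB and ATF genes were chosen by symbol after the contents of the array had been seen, 11 genes with 1 RNA each. None passed the adjusted threshold, 2 were higher at an unadjusted P below 0.05 and none lower, and the median difference was 0.12. At that P, 16.4% of all RNAs were counted (6.83% higher and 9.54% lower). Atf3, a stress-induced member of the ATF family, read 9.99, 10.20, 10.00, 10.07 and 10.47 in MT rats 1 to 5 and 9.58, 9.61, 9.76, 9.46 and 8.61 in NS rats 6 to 10. No NS rat reached the lowest MT rat, a separation with MT higher that 2.33% of all RNAs showed. The log2 difference was 0.74 (SE 0.21, limma adjusted p = 0.151), a 1.67-fold difference, and within slide 2 it was 0.93. Crebl2, a small CREB-like leucine zipper protein, was 0.30 higher (SE 0.10, adjusted p = 0.207) with overlapping groups.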
